A study of Mus musculus with 262 samples.

Results

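Vasopressin receptors and the genes that carry their calcium signal were followed across the cell types of the mouse collecting duct. The 10 genes were chosen by symbol: the receptors Avpr1a and Avpr2, the G protein alpha subunits Gnaq and Gna11, the phospholipases Plcb1, Plcb3 and Plcb4, and the calcium release channels Itpr1, Itpr2 and Itpr3. They are 10 of the 47069 genes in the tables of transcript abundance (TPM, values scaled to a fixed total in each sample), and all 10 were also found in the count table of 24111 genes. All samples were polyadenylated RNA from kidneys of 2-month-old male mice. The C57BL/6 strain gave single cells, which the authors had named as 87 type A intercalated, 23 type B intercalated, 74 principal, 19 proximal tubule and 32 non-epithelial cells. The same strain gave 2 bulk samples sorted on DBA, a lectin, and 2 sorted on c-Kit, a receptor tyrosine kinase. It also gave single microdissected tubules: 8 of the cortical thick ascending limb (cTAL) and 11 of the cortical collecting duct (CCD). The strain Atp6v1b1GFP, whose name joins the gene for a vacuolar proton pump subunit to GFP, gave 2 GFP-positive and 2 GFP-negative bulk samples. The labels state no treatment and name no animal, and the sources used here do not say which cells carry GFP in this strain.

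Vasopressin is the hormone that lets the kidney retain water. The V2 receptor, encoded by Avpr2, couples to Gs and raises cyclic AMP, which brings the water channel Aqp2 to the apical membrane of principal cells. The V1a receptor, encoded by Avpr1a, couples to Gq and G11, whose alpha subunits Gnaq and Gna11 activate phospholipase C beta. The lipase splits a membrane lipid into inositol trisphosphate and diacylglycerol. The first opens the Itpr channels, which release calcium from the endoplasmic reticulum, and the second activates protein kinase C. V1a receptors are known in intercalated cells, which secrete acid or base, as well as in vascular smooth muscle and liver.

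Most cells had the defining marker of their label, and some had those of another type. Slc4a1, the anion exchanger of type A cells, had at least 1 TPM in 77 of 87 type A cells. Slc26a4, the exchanger of type B cells, had it in all 23 type B cells, Aqp2 in all 74 principal cells, Lrp2, an endocytic receptor, in 18 of 19 proximal tubule cells, and Ptprc, a leukocyte marker, in 30 of 32 non-epithelial cells. Aqp2 also had at least 1 TPM in 14 of 19 proximal tubule cells, with a median of 47.7 TPM over the 19 where Lrp2 had 49.0 TPM, and in 58 of 87 type A and 15 of 32 non-epithelial cells. Slc4a1 also had it in 14 of 74 principal and 15 of 32 non-epithelial cells. The summed TPM of 4 thick ascending limb markers ran from 33337 to 53193 in cTAL and from 35.2 to 686 in CCD. Between 35530885 and 40815091 reads were assigned to genes in the GFP samples, and the depth of all other samples is unknown because TPM keeps none. Of the CCDs, 1 stood apart: the tubule m2 CCD2 had a median correlation of -0.36 with the other CCDs, taken over genes as deviations from the CCD mean. All 9 of the 10 genes that could be fitted kept their direction without it, and the 7 that had passed the test passed it without it too. It held the lowest CCD values of Avpr1a and Plcb1 and the highest of Avpr2, Plcb3 and Itpr2.

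In GENCODE M21 on GRCm38 all 10 are protein-coding genes. Avpr1a (ENSMUSG00000020123) lies at chr10:122448499-122453452 on the plus strand and Avpr2 (ENSMUSG00000031390) at chrX:73892102-73895502 on the plus strand. Of the 2886 exonic bases of Avpr2, 2347 are also exonic in Arhgap4, a gene on the opposite strand. The labels do not say whether counting used strand, so the values of Avpr2 may include reads of Arhgap4 and the reverse, and Arhgap4 is given beside it below. Gnaq (ENSMUSG00000024639) lies at chr19:16132831-16387463 (plus), Gna11 (ENSMUSG00000034781) at chr10:81528724-81545190 (minus), Plcb1 (ENSMUSG00000051177) at chr2:134786067-135475258 (plus), Plcb3 (ENSMUSG00000024960) at chr19:6952325-6976470 (minus) and Plcb4 (ENSMUSG00000039943) at chr2:135659011-136014593 (plus). Itpr1 (ENSMUSG00000030102) lies at chr6:108213096-108551109 (plus), Itpr2 (ENSMUSG00000030287) at chr6:146108299-146502223 (minus) and Itpr3 (ENSMUSG00000042644) at chr17:27057304-27122223 (plus). None of the other 9 shares more than 233 exonic bases with an opposite-strand gene, the 233 being those of Itpr3 with Itpr3os.

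Avpr1a, Itpr2 and Plcb1 had the clearest patterns. Avpr1a and Itpr2 were both higher in GFP-positive than GFP-negative samples, in c-Kit than DBA samples and in CCD than cTAL. Plcb1 was the only gene of the 10 that was called higher in cTAL. The bases just upstream of the start sites of these 3 genes are shown. They are RefSeq sequences on GRCm38.p6, 5′ to 3′ on the gene's strand, cut to the stretch before the start that lies in no annotated exon. Avpr1a is chr10:122448249-122448498, Itpr2 is chr6:146502259-146502473 (minus strand) and Plcb1 is chr2:134785914-134786066. Capitals mark matches on either strand to 3 motifs: TGTTTA, the core bound by forkhead factors such as the intercalated cell factor Foxi1, CCGCCC, the GC box, and TGACG, the core of the cyclic AMP response element.
Avpr1a: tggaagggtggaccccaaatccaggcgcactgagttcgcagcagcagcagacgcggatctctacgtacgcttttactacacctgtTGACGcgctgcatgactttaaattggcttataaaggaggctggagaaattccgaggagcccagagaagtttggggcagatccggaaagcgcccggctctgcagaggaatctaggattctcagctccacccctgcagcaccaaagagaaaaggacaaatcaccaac
Itpr2: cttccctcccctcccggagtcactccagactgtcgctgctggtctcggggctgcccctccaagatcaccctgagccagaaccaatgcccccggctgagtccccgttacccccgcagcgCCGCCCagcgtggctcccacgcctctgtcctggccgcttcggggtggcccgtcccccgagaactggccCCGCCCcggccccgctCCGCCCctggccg
Plcb1: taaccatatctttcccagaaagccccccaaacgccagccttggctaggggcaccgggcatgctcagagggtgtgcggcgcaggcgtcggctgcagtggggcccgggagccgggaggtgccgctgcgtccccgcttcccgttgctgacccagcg
Over the whole 250 bases upstream, the Avpr1a sequence held 1 TGACG, 12 CpG dinucleotides and 53.6% G and C. The Itpr2 sequence held 4 CCGCCC, 22 CpG and 74.4% G and C, and the Plcb1 sequence held 1 CCGCCC, which lies nearer the start than the stretch printed, 22 CpG and 71.2% G and C. The sequence upstream of Avpr2 held 1 TGTTTA, 0 CpG and 49.2% G and C. It is not printed because none of it lay outside both the annotated exons and the RefSeq gene. Among 32851 mouse promoter sequences of the same length, 12.0% held TGTTTA, 32.7% CCGCCC and 17.8% TGACG on either strand, so each of these matches is common. RefSeq upstream sequences were found for 9 of the 10 genes.

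The 2 receptors marked different single cells. Avpr1a had at least 1 TPM in 62 of 87 type A cells (71.3%, exact Clopper-Pearson 95% interval 60.6 to 80.5) and in 14 of 23 type B cells (60.9%, 38.5 to 80.3), but in 9 of 74 principal cells (12.2%, 5.71 to 21.8). It had it in 4 of 19 proximal tubule cells and 7 of 32 non-epithelial cells. Among type A cells its TPM ran from 0 to 1039 with a median of 6.23, and among type B cells from 0 to 737 with a median of 15.9. In principal cells the median was 0.01 TPM and the highest cell had 138 TPM. Mean levels were 89.1 TPM in type A, 77.9 in type B, 19.3 in non-epithelial, 3.09 in principal and 2.37 in proximal tubule cells. The means of type A and type B were close beside a spread over cells of 201 and 156 TPM (SD), and 1 cell made up 41.1% of the type B sum. Because no animal is named for any cell, each cell type counts as 1 sample, these intervals cover counting error only, and the cell types were compared without a test.

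Avpr2 was highest in principal cells and lowest in type B cells. It had at least 1 TPM in 62 of 74 principal cells (83.8%, 73.4 to 91.3) with a median over all 74 of 455 TPM, a highest value of 3472 and a mean of 667. No type B cell of 23 reached 1 TPM, which allows a share of up to 14.8% (upper exact 95% bound), and the highest type B value was 0.21 TPM. In type A cells 18 of 87 reached 1 TPM, but the median of those 18 was 1.38 TPM and only 3 of 87 reached 10 TPM, against 54 of 74 principal cells. Mean levels were 102 TPM in proximal tubule, 46.0 in non-epithelial and 6.29 in type A cells. The SD was larger than the mean in these 3 types, as it was in all 50 pairs of a gene and a cell type, principal cells included. The proximal tubule mean was 28.5 TPM without its highest cell. Arhgap4, the overlapping gene, had at least 1 TPM in 42 of 74 principal, 5 of 87 type A and 0 of 23 type B cells, with a mean of 5.61 TPM in principal cells.

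**Figure D1:**
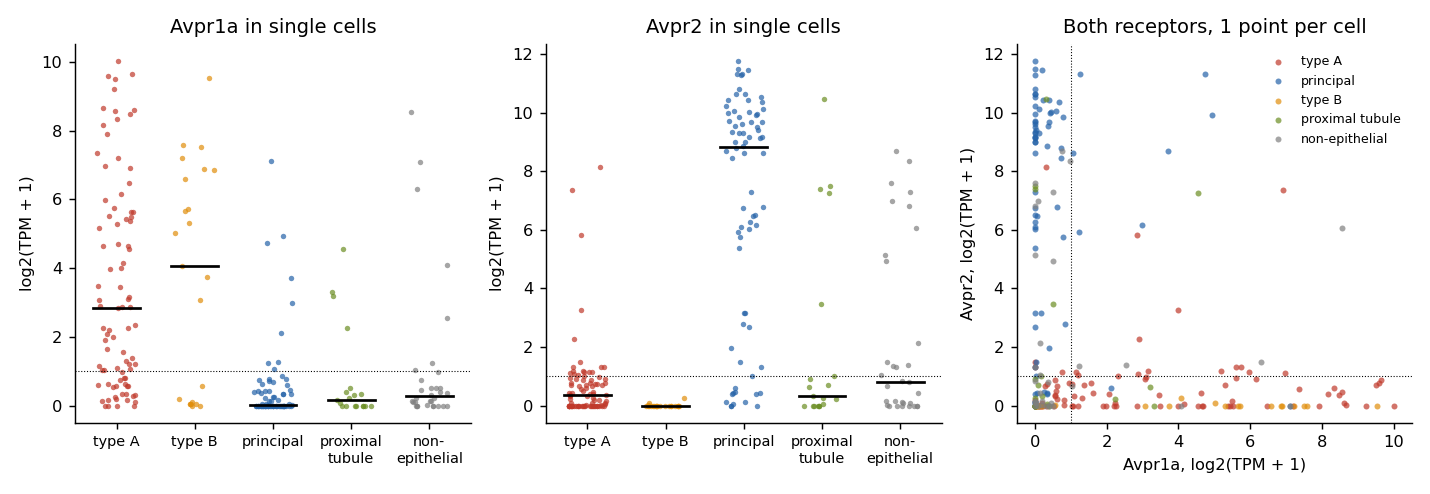
Levels of Avpr1a and Avpr2 as log2(TPM + 1) in single cells of the 5 types (left and middle, 1 point per cell, bar at the median) and both receptors in the same cells (right), with dotted lines at 1 TPM. Type A and type B cells fill the high end of Avpr1a, principal cells the high end of Avpr2, and few cells are high for both.

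Few cells were high for both receptors. With a threshold of 10 TPM, 36 of 87 type A cells had Avpr1a alone, 2 had Avpr2 alone and 1 had both. All 13 type B cells at or above 10 TPM for Avpr1a were without Avpr2. Of the 74 principal cells, 51 had Avpr2 alone, 1 had Avpr1a alone and 3 had both. With a threshold of 1 TPM the cells with both numbered 14 of 87 type A and 7 of 74 principal cells.

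Several sets of cells that carried the receptor of another type also more often carried other markers of that type. Of the 9 principal cells with Avpr1a, 7 had Slc4a1 and 8 had Kit at 1 TPM or more, against 7 and 11 of the 65 principal cells without it. They also had a median of 3288 genes at 1 TPM or more, against 2861. Of the 18 type A cells with Avpr2, 17 had Aqp2, against 41 of 69 without. The 6 proximal tubule cells with Avpr2 all had Aqp2, with a median of 910 TPM, against 13.9 TPM in the other 13. Of the 4 proximal tubule cells with Avpr1a, 1 had Slc4a1, 1 had Foxi1 and 2 had Kit, against 3, 1 and 0 of the 15 without it. A set of 4 cells is too small to show a difference in either direction. All 7 non-epithelial cells with Avpr1a had Ptprc, 6 had Slc4a1 and 5 had Foxi1, against 9 and 4 of the 25 without Avpr1a for Slc4a1 and Foxi1. Within type A, cells with Avpr1a more often had Slc4a1 (59 of 62, against 18 of 25) and Foxi1 (46 of 62, against 12 of 25), and had a median of 2797 detected genes against 2460. What part the depth of a cell or more than 1 cell in a capture chamber has in these counts was not tested.

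Among the calcium release channels, Itpr2 was detected in a larger share of type A and type B cells than of principal cells, and Itpr1 in a larger share of principal cells. Itpr2 had at least 1 TPM in 72 of 87 type A cells (82.8%, 73.2 to 90.0), 20 of 23 type B cells (87.0%, 66.4 to 97.2) and 34 of 74 principal cells (45.9%, 34.3 to 57.9). Its median was 38.7 TPM in type A, 30.9 in type B and 0.78 in principal cells. Itpr1 had at least 1 TPM in 46 of 74 principal (62.2%, 50.1 to 73.2), 39 of 87 type A (44.8%, 34.2 to 55.9) and 11 of 23 type B cells, with medians of 5.88, 0.35 and 0.59 TPM. Itpr3 reached 1 TPM in 3 type A, 3 type B, 1 proximal tubule and 0 principal or non-epithelial cells. Of the proximal tubule cells, 3 of the 4 with Avpr1a and 8 of the 15 without it had Itpr2. Of the non-epithelial cells, 6 of the 7 with Avpr1a and 11 of the 25 without it had Itpr2. At least 1 Itpr gene was found in 15 of 19 proximal tubule and 24 of 32 non-epithelial cells. Itpr1 and Itpr2 were detected in every cell type, in different proportion.

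Both G protein subunits were detected in every cell type, Gna11 in the smallest shares of proximal tubule and non-epithelial cells. Gnaq had at least 1 TPM in 23 of 87 type A, 12 of 23 type B, 28 of 74 principal, 9 of 19 proximal tubule and 16 of 32 non-epithelial cells. Gna11 had it in 25, 12, 22, 2 and 5 cells of the same types, and its mean was 64.2 TPM in type A, 48.6 in type B and 36.5 in principal cells. Of the lipases, Plcb4 had at least 1 TPM in 34 of 87 type A, 20 of 74 principal and 3 of 23 type B cells, and 1 type B cell made up 90.0% of that type's sum. Plcb3 was detected in 5 of 87 type A, 5 of 23 type B and 5 of 74 principal cells, and Plcb1 in 4, 2 and 1.

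**Figure D2:**
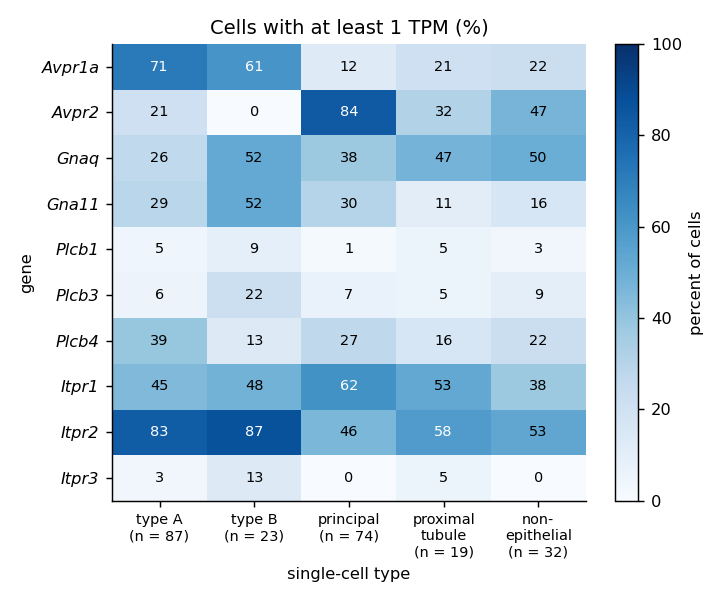
Percentage of cells with at least 1 TPM for each of the 10 genes (rows) in each single-cell type (columns, with the number of cells); darker blue is a larger share. Avpr1a and Itpr2 are darkest in type A and type B, Avpr2 and Itpr1 in principal cells, and Plcb1, Plcb3 and Itpr3 are pale throughout.

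Joint detection along the chain was limited. Of the 62 type A cells with Avpr1a, 52 had Itpr2, 31 had Gnaq or Gna11 and 34 had 1 or more of the 3 Plcb genes, and 17 had the receptor and at least 1 gene of each later step. Of the 25 type A cells without Avpr1a, 20 had Itpr2. Among all 87 type A cells, 18 had at least 1 gene of each later step, and 17 of these also had Avpr1a. Type A cells with Avpr1a also had more detected genes (median 2797 against 2460), and the part of depth in these counts was not tested. Of the 14 type B cells with Avpr1a, 13 had Itpr2, 11 a G protein subunit and 3 a Plcb gene. By mean TPM, 6 of the 10 genes were higher in type A than in principal cells (Avpr1a, Gna11, Plcb1, Plcb4, Itpr2 and Itpr3) and 4 were lower (Avpr2, Gnaq, Plcb3 and Itpr1). By the share of cells with 1 TPM the order of Gna11 was the other way (28.7% in type A, 29.7% in principal cells).

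The genes most like each receptor over all single cells were found by Pearson correlation of log2(TPM + 1), among 4685 genes with at least 1 TPM in at least 20% of cells. For Avpr1a the 5 highest were Pam (0.59), Aldh1l1 (0.58), Oxgr1 (0.56), Atp6v1g3 (0.56) and Atp6v0d2 (0.55). Pam makes amidated peptides, Aldh1l1 is a folate enzyme, Oxgr1 is the oxoglutarate receptor, and the last pair are proton pump subunits. For Avpr2 they were Apela (0.74), a peptide ligand, Fxyd4 (0.73), a sodium pump regulator, Aqp2 (0.72), Hsd11b2 (0.71), which inactivates glucocorticoids, and Kcnj1 (0.67), the potassium channel of potassium secretion. Itpr2 had a correlation of 0.28 with Avpr1a and -0.19 with Avpr2, and the 2 receptors had -0.31 with each other. Cells share their type and differ in depth, so these values describe the type pattern and carry no test.

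The sorted GFP fractions, the only samples with counts, showed Avpr1a far higher in GFP-positive cells. Its counts were 203 and 90 in the GFP-negative samples and 9800 and 12073 in the GFP-positive samples. As CPM (counts scaled to a common library size by the TMM method), this was 3.69 ± 1.501 (SD, n = 2) against 291 ± 39.1 (n = 2), a log2 difference of 6.29 ± 0.32 (SE) with an adjusted p of 3.11e-05 in edgeR's quasi-likelihood test. Here and below, p-values are adjusted by the Benjamini-Hochberg method over all genes tested, a gene is called at an adjusted p under 0.05, and the spread is that between samples not stated to be separate animals. The groups did not overlap, as was so for 70.2% of all genes tested with 2 samples against 2. GFP-positive cells were higher in all 4 type A, all 3 type B, all 3 general intercalated and all 6 principal cell markers. The general intercalated markers include Atp6v1b1, the gene in the name of the strain, which may not be independent of the sort. All 4 markers of the distal convoluted and connecting tubule were higher too, with a median log2 difference of 2.97 against 2.15 for the principal cell markers. All 5 proximal tubule, all 4 immune and all 3 endothelial markers were lower, 1 of 4 thick ascending limb markers was higher and 1 lower, and 1 of 5 smooth muscle, fibroblast and pericyte markers was lower. The part of these other cell types in the values of the 10 genes was not tested. In bulk samples, fewer cells of a type and less RNA per cell cannot be told apart.

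Avpr2 was also higher in the GFP-positive samples, by less. It had 461 and 323 counts in GFP-negative and 1163 and 1979 in GFP-positive samples, or 10.1 ± 0.956 and 41.7 ± 14.8 CPM (SD, n = 2 each), a log2 difference of 2.04 ± 0.29 (SE, adjusted p 0.00099, edgeR). Arhgap4 differed by 0.91 ± 0.42 on the log2 scale and was not called (adjusted p 0.131, edgeR). The authors' table of RPKM (reads scaled by gene length and library size) lists Avpr2 at 0 in both samples of the first experiment, although the count table holds reads for it in every sample. In its second experiment it lists 0.605 for GFP-negative and 0.762 for GFP-positive cells, a much smaller difference than in the counts. Arhgap4 was listed at 0.107 and 0.801 RPKM in GFP-negative and 2.27 and 2.62 in GFP-positive samples. Counts and RPKM thus differ in which of the overlapping genes rose more, and how reads were divided between them was not tested. Avpr1a was listed at 1.35 and 0.615 RPKM in GFP-negative and 71.1 and 108.9 in GFP-positive samples.

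Of the 10 genes, 5 were called higher in GFP-positive cells and 0 lower, where 32.6% of all 15671 genes tested were called, 15.2% higher and 17.3% lower. The median log2 difference of the 10 was 1.00, against 0.02 over all genes tested. Itpr2 went from 103 and 63.6 CPM in the GFP-negative samples to 981 and 838 in the GFP-positive samples (log2 difference 3.45 ± 0.27 SE, adjusted p 6.57e-05, edgeR). Plcb4 went from 21.1 and 19.5 CPM to 122 and 126 (2.61 ± 0.18, adjusted p 4.68e-05), and Plcb3 from 23.2 and 17.8 to 40.2 and 47.1 (1.09 ± 0.23, adjusted p 0.00726). Itpr3 had 10.8 and 7.61 against 14.2 and 20.7 CPM and just missed the threshold (0.92 ± 0.31, adjusted p 0.0513, edgeR). With the replicate number as a block it was called (0.92, adjusted p 0.0319).

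The other 4 genes did not pass the test. Gnaq had 121 ± 2.99 CPM in GFP-negative and 143 ± 2.64 in GFP-positive samples, a log2 difference of 0.24 ± 0.16, and Gna11 had 52.4 ± 2.68 and 63.2 ± 10.4, a difference of 0.27 ± 0.19 (adjusted p 0.278 and 0.316, edgeR). Plcb1 had 48.5 and 41.4 CPM in GFP-negative and 59.9 and 29.6 in GFP-positive samples, and Itpr1 had 553 and 508 against 670 and 445. For both, the 2 GFP-positive samples lay on either side of the GFP-negative samples.

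Sorting on c-Kit against DBA set the receptors apart in opposite directions. Avpr1a stood at 432 and 442 TPM in the c-Kit samples and at 14.0 and 14.85 TPM in the DBA samples. The ratio of the means was 30.3, and the difference on the log2(TPM + 1) scale was 4.83 ± 0.07 (SE, adjusted p 5.58e-07, limma). Avpr2 stood at 99.1 and 82.5 TPM in the c-Kit and 738 and 679 TPM in the DBA samples, a difference of -2.96 ± 0.10 (adjusted p 5.34e-06, limma). Avpr1a thus made up 81.3% and 84.3% of the summed receptor TPM in the c-Kit samples and 1.86% and 2.14% in the DBA samples. Arhgap4 had 14.3 ± 6.96 TPM in c-Kit and 30.8 ± 1.39 in DBA samples and was called lower too (-1.14 ± 0.29, adjusted p 0.0185, limma). The summed TPM of the 6 principal cell markers was 2592 to 3486 in c-Kit and 22391 to 25005 in DBA samples, and that of the 4 type A markers 3059 to 3097 and 61.1 to 73.1. The type A markers include Kit, the gene of the protein sorted on, so their sum is not independent of the sort. The 3 mast cell markers summed to 61.8 to 77.2 TPM in c-Kit and 0.32 to 0.38 in DBA samples. The 4 immune markers were lower in c-Kit (4 of 4 called), but still summed to 3634 to 3881 TPM there, above the type A markers. In DBA samples they summed to 11602 to 12036 TPM. The 5 proximal tubule markers summed to 1200 to 1326 TPM in c-Kit and 2507 to 2590 in DBA samples (5 of 5 called lower in c-Kit). The part of such cells in the values of the 10 genes was not tested.

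Of the 10 genes, 3 were called higher and 3 lower in c-Kit, where 44.3% of all 14341 genes tested were called, 16.1% higher and 28.1% lower. The median log2 difference was 0.04 over the 10 and -0.11 over all genes. With quantile normalization 49.9% of all calls were higher in c-Kit, against 36.5%, and of the 10 genes 3 were called higher and 1 lower, as Gnaq (adjusted p 0.0919, limma) and Itpr1 (0.134) lost their calls. Itpr2 had 196 and 207 TPM in the c-Kit and 44.8 and 56.4 in the DBA samples (1.98 ± 0.11 SE, adjusted p 3.62e-05, limma). Itpr1 had 28.5 and 29.0 against 35.5 and 34.8 TPM (-0.28 ± 0.08, adjusted p 0.0312, limma). As a result, Itpr2 made up 86.9% ± 0.53 (SD, n = 2) of the summed Itpr TPM in c-Kit and 57.8% ± 4.14 in DBA samples. Plcb4 was modestly higher, at 39.4 and 43.2 against 31.9 and 29.15 TPM (0.42 ± 0.09, adjusted p 0.0107), and Gnaq lower, at 7.37 and 8.89 against 12.7 and 12.6 TPM (-0.59 ± 0.14, adjusted p 0.0146). These 3 smaller differences kept their direction when any 1 of the 4 samples was left out. They ran from -0.29 to -0.27 for Itpr1, from -0.71 to -0.47 for Gnaq and from 0.36 to 0.49 for Plcb4. Their calls did not all hold in these fits, where 1 group has only 1 sample, so the calls have a thin margin.

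Gna11, Plcb1, Plcb3 and Itpr3 did not pass the test between c-Kit and DBA. Gna11 had 72.2 and 69.6 against 63.8 and 64.5 TPM. Plcb3 had 36.8 and 31.0 against 34.6 and 33.0 TPM and Plcb1 8.23 and 6.14 against 7.67 and 7.40 TPM, so that the c-Kit values enclosed the DBA values. Itpr3 was low in both, at 1.37 to 2.03 TPM.

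**Figure D3:**
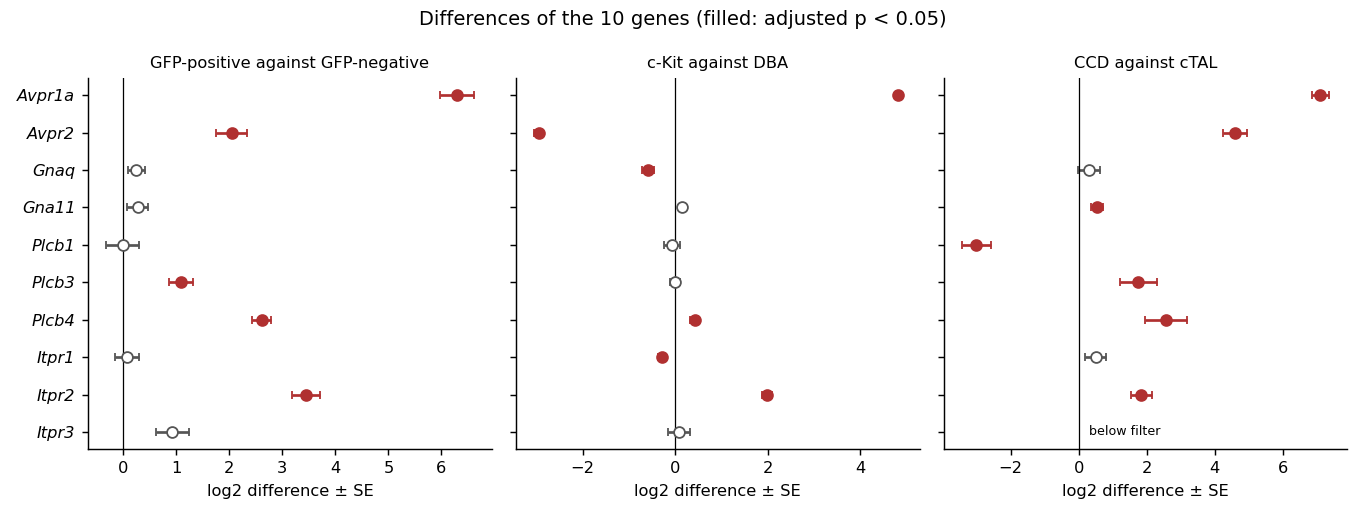
Log2 differences with standard errors for the 10 genes in the 3 comparisons, as CPM from edgeR for the GFP fractions and as log2(TPM + 1) from limma for the other 2, filled red where the adjusted p is under 0.05. Avpr1a and Itpr2 are to the right in all 3 panels, Avpr2 changes side between c-Kit and the other 2, and Plcb1 is far to the left in the tubules, where Itpr3 was below the filter.

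In microdissected tubules Avpr1a had the largest difference of the 9 genes tested. Its TPM ran from 95.5 to 229 with a median of 154 in the 11 CCDs and from 0 to 0.30 with a median of 0.12 in the 8 cTALs. The difference on the log2(TPM + 1) scale was 7.11 ± 0.26 (SE, adjusted p 7.46e-16, limma). Avpr2 ran from 809 to 1792 TPM (median 1201) in CCD and from 9.47 to 144 TPM (median 59.8) in cTAL, a difference of 4.59 ± 0.35 (adjusted p 6.24e-10, limma). Neither gene overlapped between the segments, as was so for 5.51% of all genes tested. Tubules whose names share a prefix may share an animal, which the labels do not say, and p-values over tubules may then be too small. The cTALs thus had Avpr2 at a level where Avpr1a was near 0, and Avpr1a made up 12.1% ± 3.62 (SD, n = 11) of the summed receptor TPM in CCD and 0.517% ± 0.930 (n = 8) in cTAL. Arhgap4 had 50.7 ± 14.5 TPM in CCD and 12.2 ± 9.84 in cTAL (2.47 ± 0.47, adjusted p 0.000454, limma). The summed principal cell markers ran from 748 to 1098 TPM in cTAL and from 24841 to 46324 in CCD, and the summed type A markers from 0.13 to 1.11 TPM and from 305 to 816. Of the 6 principal cell markers, 5 were called higher in CCD and 1 was not called, so the sum does not stand for each marker.

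Of the 9 genes tested, 6 were called higher in CCD and 1 lower, where 18.7% of all 13520 genes tested were called, 13.2% higher and 5.50% lower. The median log2 difference was 1.75 over the 9 and 0.31 over all genes tested, which is the shift that other differences should be read against. With quantile normalization that shift was -0.03 and 49.5% of all calls were higher in CCD, against 70.5%. Itpr3 did not reach a mean of 1 TPM over the tubules, with medians of 0.32 TPM in CCD and 0.01 in cTAL.

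Plcb1 was the gene called lower in CCD. It ran from 0.05 to 4.77 TPM (median 2.24) in CCD and from 8.78 to 40.8 TPM (median 25.0) in cTAL without overlap (-3.01 ± 0.42 SE, adjusted p 9.67e-06, limma). Plcb4 ran from 8.12 to 72.6 TPM (median 34.0) in CCD and from 0.02 to 40.3 TPM (median 6.87) in cTAL (2.58 ± 0.62, adjusted p 0.00386, limma). Plcb3 ran from 11.7 to 113 TPM (median 31.9) in CCD and from 0.01 to 29.6 TPM (median 12.9) in cTAL (1.75 ± 0.54, adjusted p 0.0249, limma). Both overlapped between the segments, and Plcb3 lost its call without the cTAL from m2 or the first cTAL from m7 (adjusted p 0.0520 and 0.0516, limma).

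The phospholipase C beta transcripts therefore had a different composition in the 2 segments. Plcb1 made up 3.49% ± 2.499 (SD, n = 11) of the summed TPM of Plcb1, Plcb3 and Plcb4 in CCD and 55.5% ± 24.6 (n = 8) in cTAL. The exact two-sided permutation test over the 75582 splits of the tubules gave p = 1.32e-05, or 6.62e-05 after Benjamini-Hochberg adjustment over 5 shares. This test of the 5 shares was chosen after the data were seen. It uses the same TPM values as the tests of single genes, so it describes composition and adds no separate support. Plcb4 made up 49.5% ± 19.1 in CCD and 20.4% ± 25.8 in cTAL (exact permutation adjusted p 0.0165), but 0.0838 when tubules with the same column prefix were averaged first. The Plcb1 share lay between 17.6% and 99.0% in single cTALs, and the highest CCD had 8.40%.

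Of the release channels, Itpr2 was higher in CCD, from 65.9 to 203 TPM (median 86.8), than in cTAL, from 6.32 to 37.3 TPM (median 34.9), without overlap (1.84 ± 0.30 SE, adjusted p 7.91e-05, limma). Itpr1 had 26.9 ± 9.62 TPM in CCD and 19.1 ± 7.07 in cTAL and was not called (0.50 ± 0.30, adjusted p 0.292, limma). Itpr2 made up 78.2% ± 6.95 (SD, n = 11) of the summed Itpr TPM in CCD and 58.9% ± 8.91 (n = 8) in cTAL (exact permutation adjusted p 0.000287).

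Gna11 was the more abundant of the 2 alpha subunits in both segments. It ran from 57.4 to 102 TPM (median 70.3) in CCD and from 38.4 to 59.7 TPM (median 49.5) in cTAL, with overlap, and was called by a small margin (0.53 ± 0.18 SE, adjusted p 0.0425, limma). That call was lost with quantile normalization (0.32, adjusted p 0.312), with prefix means (0.48, adjusted p 0.197) and in 12 of the 19 fits that left out 1 tubule (adjusted p 0.0541 to 0.0846). Gnaq ran from 6.16 to 11.5 TPM in CCD and from 2.25 to 15.0 TPM in cTAL and was not called (0.31 ± 0.33, adjusted p 0.589, limma). Gna11 made up 89.5% ± 2.53 of the summed TPM of both in CCD and 87.5% ± 6.09 in cTAL, a difference of 2.00 percentage points that did not pass the test (exact permutation adjusted p 0.365).

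**Figure D4:**
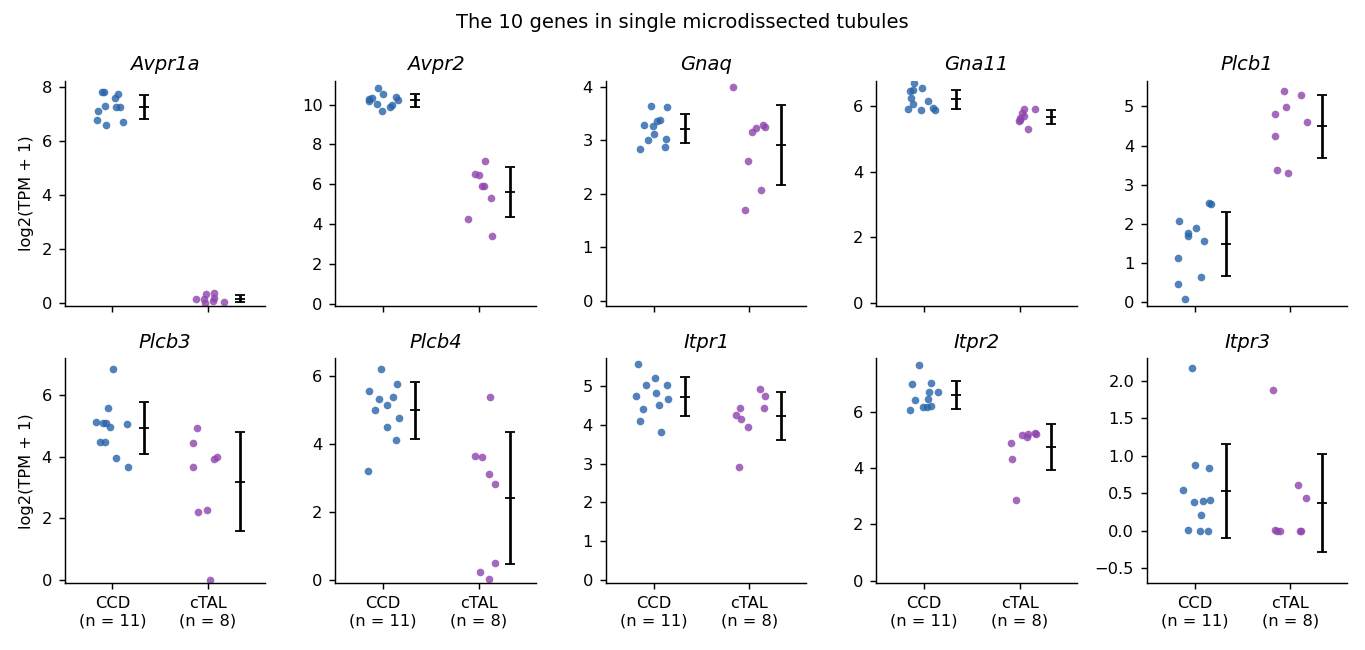
Levels of the 10 genes as log2(TPM + 1) in the 11 CCDs (blue) and 8 cTALs (purple), 1 point per tubule, with the mean and SD beside the points. Avpr1a, Avpr2 and Itpr2 are higher and Plcb1 lower in every CCD than in every cTAL, while Gnaq, Gna11, Itpr1, Plcb3, Plcb4 and Itpr3 overlap.

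**Figure D5:**
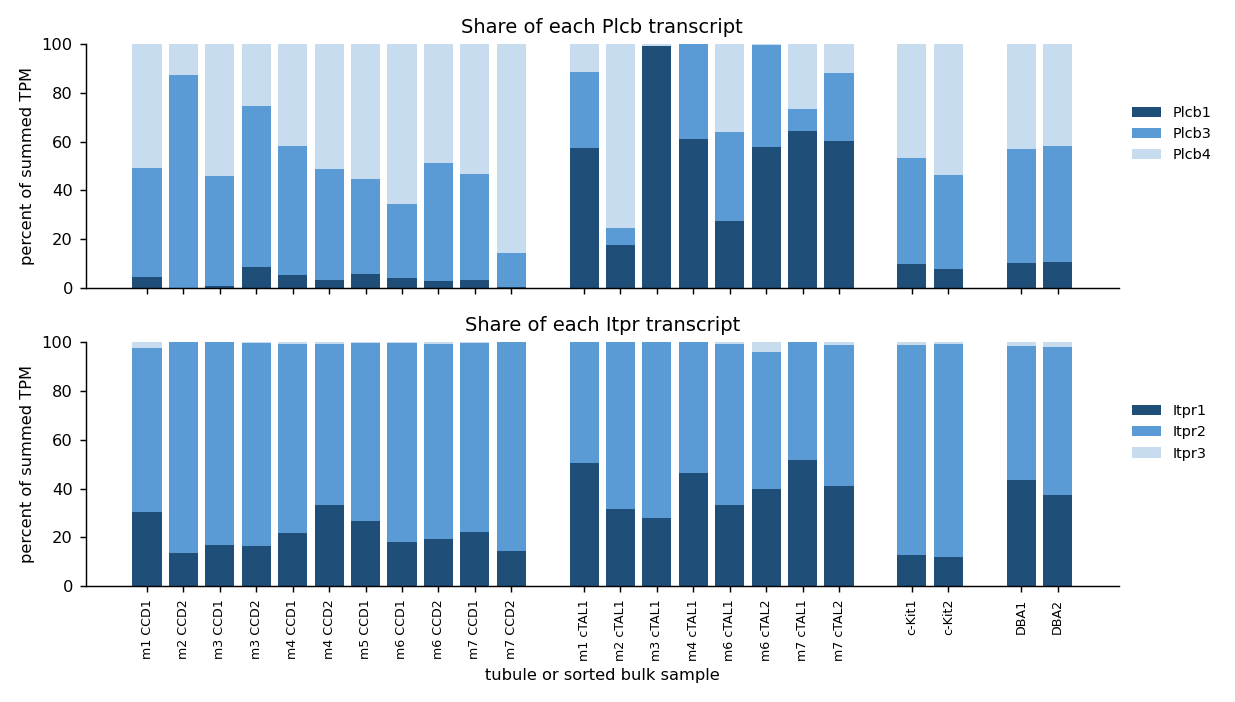
Share of each transcript in the summed TPM of the 3 Plcb genes (top) and of the 3 Itpr genes (bottom) in each tubule and each sorted bulk sample. Plcb1 is a thin band in CCDs and in c-Kit and DBA samples and most of the bar in 6 of the 8 cTALs, and Itpr2 takes 65.7% to 86.5% in CCDs, 48.4% to 72.1% in cTALs, 86.5% to 87.2% in c-Kit and 54.8% to 60.7% in DBA samples.

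Levels can be set in order within a TPM table. In CCD, Avpr2 (mean 1210 TPM) stood above all others without overlap, followed by Avpr1a (161), Itpr2 (102), Gna11 (74.0), Plcb3 (35.4), Plcb4 (35.35) and Itpr1 (26.9), each of which overlapped the next over the 11 tubules. Gnaq (8.48), Plcb1 (2.19) and Itpr3 (0.611) were below these. In cTAL, Avpr2 (63.3) overlapped Gna11 (50.4), and Itpr2 (29.3), Plcb1 (24.5), Itpr1 (19.1), Plcb3 (12.3), Plcb4 (9.66) and Gnaq (7.40) overlapped from neighbour to neighbour. Avpr1a (0.134) was the lowest of the 10 there. In the c-Kit samples Avpr1a (437), Itpr2 (201), Avpr2 (90.8) and Gna11 (70.9) led, and in the DBA samples Avpr2 (708) led and Avpr1a (14.4) was seventh.

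Other genes of the pathway were taken from fixed lists. The largest rises, falls and extremes named from these lists are those among called genes whose groups did not overlap. Counts of called genes in these lists are to be read against the shares of all genes called: 32.6% with GFP (15.2% higher, 17.3% lower), 44.3% in c-Kit (16.1% and 28.1%) and 18.7% in tubules (13.2% and 5.50%). Of 14 other calcium-coupled receptors, 11 were tested in the GFP fractions, with 5 higher and 5 lower, 10 in c-Kit against DBA, with 3 higher and 5 lower, and 9 in the tubules, with 1 higher and 1 lower. The remaining vasopressin receptor Avpr1b and the oxytocin receptor Oxtr reached 1 TPM in 0 cells of each of the 5 types. Oxgr1, the oxoglutarate receptor of intercalated cells, had the largest rise of the list in all 3 comparisons, from 5.88 to 343 CPM with GFP (log2 difference 5.86), from 17.4 TPM in DBA to 882 in c-Kit (5.59) and from 6.87 TPM in cTAL to 120 in CCD (4.50). The largest falls were P2ry6, a nucleotide receptor, in GFP-positive cells (-4.03), P2ry2, another one, in c-Kit cells (-2.31), and Casr, the calcium-sensing receptor, in CCD (21.6 TPM against 113 in cTAL, -2.79).

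Among 12 other G protein, phospholipase C and regulator genes, 6 were called higher and 1 lower in GFP-positive cells, 3 higher and 3 lower in c-Kit, and 3 higher and 0 lower of the 7 tested in CCD. The 7 of 12 called with GFP and 6 of 12 called in c-Kit stand beside 32.6% and 44.3% of all genes. Plcg2, a lipase activated by tyrosine kinases, led in GFP-positive cells (133 against 9.43 CPM, 3.81), Plcd4 in c-Kit (20.1 against 1.73 TPM, 2.95) and Plcd3 in CCD (76.7 against 1.68 TPM, 5.15). Both of the latter are delta-type lipases. The largest falls were Gna14, another Gq-family subunit, in GFP-positive cells (-1.52), and Plcb2, the beta-type lipase of blood cells, in c-Kit (1.35 against 4.30 TPM, -1.17).

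Of 6 protein kinase C genes, 3 were higher and 1 lower with GFP, 3 higher and 2 lower in c-Kit, and 3 of 5 higher in CCD. Prkcq (2.08) and Prkcb (-2.10) were the extremes with GFP. Prkch, the eta isoform, was lower in c-Kit (12.7 against 37.3 TPM, -1.48), where Prkca was higher (1.07), and higher in CCD (29.2 against 1.78 TPM, 3.76). Of 14 genes of calcium stores and entry, 4 of 13 tested were higher and 2 lower with GFP, 0 of 10 higher and 7 lower in c-Kit, and 3 of 10 higher and 1 lower in CCD. Of all genes, 15.2% were higher and 17.3% lower with GFP, 16.1% and 28.1% in c-Kit, and 13.2% and 5.50% in CCD. The extremes were the plasma membrane calcium pumps Atp2b4 with GFP (2.90) and Atp2b2 in c-Kit (3.29 against 21.5 TPM, -2.39), the reticulum pump Atp2a3 with GFP (-1.69), and the store sensor Stim1 in CCD (20.5 against 1.31 TPM, 3.54).

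Of 11 calmodulin-pathway genes, 1 was higher with GFP, 2 were higher and 5 lower in c-Kit, and 6 were higher and 0 lower in CCD, where 15.2%, 16.1% and 13.2% of all genes were higher and 17.3%, 28.1% and 5.50% lower. Camkk2, a calmodulin-dependent kinase, was higher with GFP (0.91), lower in c-Kit (17.8 against 65.1 TPM, -1.82) and higher in CCD (69.8 against 6.66 TPM, 3.42), and Camk1 was higher in c-Kit (0.63). Of 8 genes on the cyclic AMP side of Avpr2, 1 was higher and 2 lower with GFP, 2 higher and 3 lower in c-Kit, and 0 of 5 called in CCD. Adcy6, an adenylyl cyclase, was higher (260 against 89.3 CPM, 1.54) and Pde4d, a cyclic AMP phosphodiesterase, lower (-1.61) with GFP, and Prkar2b was higher (0.77) and Akap12, an anchoring protein, lower (-2.63) in c-Kit. Median log2 differences of the 6 lists ran from -0.12 to 0.73 with GFP, where all genes had 0.02, from -0.75 to 0.31 in c-Kit, where all genes had -0.11, and from -0.03 to 1.53 in CCD, where all genes had 0.31.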

How the data were processed

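RNA was measured in single cells, 8 sorted bulk samples and 19 tubules. The authors deposited gene read counts (not normalized) and RPKM for the GFP fractions, and TPM for all other samples. The submitters' processing notes name STAR 2.5.1b, RSEM 1.2.31, Seurat and the build GRCm38.p5, and do not say which tool made which file. Reads assigned to no feature were 66.5% to 72.7% of all counted reads and were left out. Groups come from the labels.

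Counts were tested with edgeR 4.0.16 (TMM, low-count filter, quasi-likelihood) and TPM with limma 3.58.1 on log2(TPM + 1) where a gene averaged 1 TPM or more. A fold change on that scale understates the change of low genes. P-values were adjusted by Benjamini-Hochberg over all genes tested. Each single-cell type counts as 1 sample, doublets were not called, and no test was made between types. Family shares were compared by an exact two-sided permutation test, chosen after seeing the data, as were the averages and blocks by tubule prefix. The methods were tested on simulated data. Same-numbered GFP samples deviated together (correlation 0.18), and the RPKM headers name a first and a second experiment. Alternatives included DESeq2 1.42.0, other filters, normalizations and pseudocounts, a replicate block and leaving out each sample.

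The 10 genes and the lists were chosen with earlier results of these data known. Named pathway genes are, per list and comparison, the called gene with the largest difference in each direction among genes whose groups do not overlap. Likeness is Pearson correlation over single cells.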

Additional observations from a re-analysis of the deposited data

Results flagged for a closer look

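Among the 10 genes, 2 had a single cTAL far from the other 7 by Dixon's test (gap over range above 0.526 for 8 samples). Plcb4 had 40.3 TPM in the cTAL from m2, where the next highest had 11.6 TPM, a gap of 0.713 of the range. Itpr3 had 2.67 TPM in the second cTAL from m6, where the next highest had 0.52 TPM, a gap of 0.805 of the range. Chance flags about 1 in 20 such groups where values are normally distributed. In cTAL both genes had an SD above the mean (13.2 and 9.66 TPM for Plcb4, 0.922 and 0.445 TPM for Itpr3). The rate may therefore be higher for them and was not tested.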

How the results depend on the processing

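Avpr1a, Avpr2 and Itpr2 in all 3 comparisons, Plcb4 with GFP and in tubules, and Plcb1 in tubules kept their direction and their call in every alternative that tested them. RPKM did not test Avpr2. With limma on log2(RPKM + 1), 3 of 9 genes and 1639 of all genes were called with GFP, against 5 and 5101, and Plcb3 was lost (1.46, adjusted p 0.0653). Without a low-value filter 2253 genes were called in c-Kit, against 6348, with Gnaq and Plcb4 lost (adjusted p 0.143 and 0.15004), and with sample weights 4401 in tubules, against 2526. Leaving out 1 sample gave 5 to 6 of the 10 genes and 3616 to 4211 of all genes with GFP, 3 to 5 and 3458 to 5701 in c-Kit (main values 6 and 6348), and 5 to 7 and 2239 to 3078 in tubules. The c-Kit count was 3 without either DBA sample.

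Itpr3 with GFP was called with DESeq2 (adjusted p 0.0288), no filter (0.0378) and without GFP-negative 1 (0.0265). Plcb3 in tubules was lost with a pseudocount of 0.1, without a filter and with prefix means (adjusted p 0.0562, 0.110 and 0.0534). The Plcb4 share difference was 26.5 points with prefix means (adjusted p 0.0838, exact permutation). Signs turned only for genes that were not called: Plcb1 with GFP (0.094 by RPKM, -0.63 to 0.42 leaving out 1 sample), Itpr1 with GFP (-0.28 to 0.34), Plcb1 in c-Kit (0.20 with quantile normalization, -0.26 to 0.11), Plcb3 in c-Kit (0.10, -0.12 to 0.12), Itpr3 in c-Kit (-0.093 to 0.26) and Gnaq in tubules (-0.10 with quantile normalization). The cause of these changes was not tested.

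With the replicate block, 6 of the 10 genes and 5897 of all genes were called with GFP. In c-Kit against DBA, where same-numbered samples share only a number (correlation 0.05), the block gave 6 and 6271. With the tubule prefix as a block, 6 and 2588 were called and Gna11 was lost (0.50, adjusted p 0.0718). Outside the GFP counts the depth is unknown, and detection at 1 TPM may vary with it: type A cells had 1092 to 4161 genes at 1 TPM or more.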
